A study of Homo sapiens with 6 samples.

Results

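The 10 genes described here encode cytokines and chemokines that melanoma cells can secrete: LIF, IL6 and IL11 of the interleukin-6 family, the colony-stimulating factor CSF2 (GM-CSF), the interleukin-1 ligands IL1A and IL1B, the CXC chemokines CXCL1, CXCL2 and CXCL8, and the CC chemokine CCL2. They were taken as a fixed list of names, and all 10 were found among 58523 genes with transcripts in the deposited tables. The cells were A375, an established human melanoma line from a cell repository, grown in serum-containing Dulbecco's modified Eagle's medium. There were 3 Control cultures, left untreated, and 3 Treated cultures, exposed for 24 h to hMGL, an engineered human enzyme that degrades methionine. The comparison addressed how methionine depletion by the enzyme changed the transcriptome. Both groups were the same single line, the control was no treatment rather than an inactive protein, and 1 time point was taken. The cultures are described as independent, and replicates are numbered 1 to 3 in Control and 4 to 6 in Treated, as labelled.

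Secreted cytokines act on neighbouring cells or on the cell that made them. LIF, IL-6 and IL-11 each bind a receptor of their own together with the shared subunit gp130 (gene IL6ST) and signal through JAK kinases and STAT3. GM-CSF drives myeloid cells, IL-1α and IL-1β start NF-κB signalling through the receptor IL1R1, CXCL1, CXCL2 and CXCL8 attract neutrophils through CXCR2, and CCL2 attracts monocytes through CCR2. Many of these genes are switched on by NF-κB, AP-1 and C/EBP transcription factors, and many of their mRNAs carry AU-rich elements, short repeats of the pentamer ATTTA in the 3′ untranslated region that bind decay factors such as ZFP36.

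Each library held between 50760266 and 59954677 estimated read counts. Values are given as estimated counts, as CPM (counts scaled to a common library size with TMM factors, used to compare libraries) or as TPM (the deposited length-scaled unit, used to compare genes), and tests are edgeR's quasi-likelihood test with Benjamini-Hochberg adjustment over all 22580 genes tested, called at an adjusted p under 0.05. Because TMM centres the bulk of genes, a fold change here is measured against that bulk. The response was broad: 69.4% of tested genes were called, and the groups did not overlap in 73.3%. In bulk RNA, fewer cells making a transcript and less of it per cell cannot be told apart. Melanoma and neural crest markers were present in a summed 224 to 267 TPM in Control and 191 to 229 TPM in Treated libraries, with MLANA, TYR and DCT under 1 TPM throughout. Of 9 of these markers tested, 4 were called higher and 3 lower. S100B fell by 2.72, S100A1 by 0.89 and SOX10 by 0.26 on the log2 scale. PMEL rose by 1.88 but was a small part of the sum, at 0.357 TPM on average in Control and 1.27 TPM in Treated. Of 14 leukocyte markers, 12 were under 1 TPM in every library, PTPRC, CD14 and CD3E among them, and CD2 had no count. The leukocyte sum ranged from 26.2 to 30.6 TPM in Control and from 26.4 to 32.3 TPM in Treated, mostly CD68 and LYZ. Of 5 leukocyte markers tested, ITGAM (0.0121 to 0.534 CPM on average), CD14, CSF1R and CD68 were called higher and LYZ lower (log2 fold change -1.67). The CD14 call was lost in 10 alternatives. The 8 fibroblast markers summed to 6.21 to 7.06 TPM in Control and 2.78 to 2.95 TPM in Treated, with PDGFRA, PDGFRB, LUM and COL1A1 called lower and 6 of the 8 under 1 TPM in every library. The 9 endothelial and epithelial markers summed to 156 to 168 TPM in Control and 156 to 181 TPM in Treated, mostly KRT18 (142 to 153 and 143 to 164 TPM). Among them 6 were under 1 TPM in every library. Of 7 tested, KRT5 (log2 fold change 2.65), VWF (1.31) and CDH1 (1.01) were called higher and KRT18 lower (-0.08). The part of these markers in the cytokine results was not tested.

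All 10 genes passed the filter on low counts, and 9 were called, with 7 higher and 2 lower in Treated. The backgrounds are 69.4% of tested genes called in either direction, 34.9% called higher and 34.5% called lower. The same shares apply as background to the counts of each list below. LIF, CSF2, IL6, IL11, CXCL2 and CXCL8 rose at least 2-fold, which 14.6% of tested genes did, and IL1A rose by less. CCL2 fell more than 2-fold, which 12.6% of tested genes did, CXCL1 fell by less, and IL1B was not called. In 9 of the 10 genes the 3 Treated libraries lay entirely above or below the 3 Control libraries, IL1B being the exception. Over all tested genes this held for 73.3%. The median log2 fold change of the 10 was 1.69, beside -0.02 over all genes tested. IL6 reached the count filter only through the Treated libraries and CCL2 only through the Control libraries, so a gene with that pattern had to differ to be tested. Outside the 10 genes, IL20, IL32, TSLP, IL1R2, CASP5, ITGAM and KRT5 likewise passed only through the Treated libraries, with under 10 counts in every Control library. IL37 passed only through the Control libraries. Their calls enter the counts of their lists with the same limit.

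**Figure D1:**
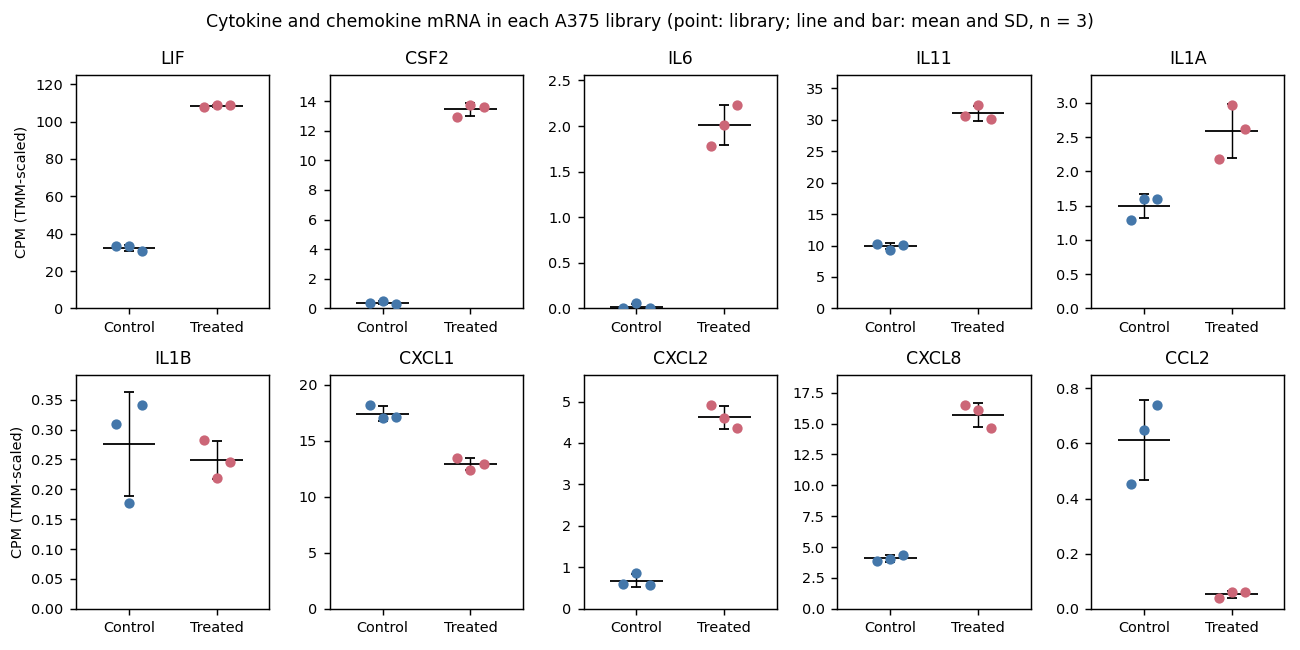
CPM (vertical axis, starting at 0, own scale in each panel) of the 10 genes in the 3 Control and 3 Treated libraries; points are libraries, the line and bar are the mean and SD. Groups are apart in every panel except IL1B, with CXCL1 and CCL2 lower in Treated and the other 7 higher.

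LIF, a pleiotropic cytokine of the interleukin-6 family, lies at chr22:30240447-30246851 on the minus strand (GRCh38, GENCODE 29). It had 1847, 1699 and 1620 counts in Control libraries 1 to 3 and 5719, 5466 and 5314 in Treated libraries 4 to 6. These are 33.5, 33.4 and 30.7 CPM against 108, 109 and 109 CPM. The groups were far apart and the Treated libraries nearly equal. The rise was 3.33-fold (log2 fold change 1.73, SE 0.039, edgeR adjusted p = 9.39e-17). LIF was already expressed without the enzyme, at 11.6 ± 1.68 TPM (SD, n = 3), and reached 39.0 ± 2.34 TPM with it. Its longer transcript LIF-201 carried 72.2% to 77.3% of LIF counts in Control and 76.9% to 77.5% in Treated, so the isoform split overlapped between the groups. Per length the short LIF-202 was higher, at 7.32 to 10.3 TPM in Control and 27.4 to 30.2 TPM in Treated, against 2.55 to 3.21 and 10.1 to 11.5 TPM for LIF-201. LIF overlaps the antisense gene LIF-AS2 over 647 bases. LIF-AS2 had 41 to 59 counts in Control and 83.1 to 102 in Treated, far fewer than LIF, and whether counting used strand is not stated.

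IL11, which also signals through gp130 and is known from fibrosis and haematopoiesis, lies at chr19:55364389-55370463 (minus strand). It had 560, 473 and 535 counts in Control and 1628, 1623 and 1470 in Treated, or 10.2, 9.31 and 10.1 CPM against 30.6, 32.3 and 30.1 CPM. The groups did not overlap, and the rise was 3.14-fold (log2 fold change 1.65, SE 0.054, edgeR adjusted p = 1.35e-14), close to that of LIF in size. IL11-201 held 87.4% to 96.4% of its Treated counts. IL11-202 drew 6.92% in 1 Treated library and close to 0 in the Control libraries.

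IL6, the acute-phase and B-cell cytokine that names the family, lies at chr7:22725884-22732002 (plus strand). It was near zero without the enzyme, with 0, 3 and 0 counts in the Control libraries, and had 95, 101 and 109 counts in the Treated libraries. In CPM these are 0, 0.0591 and 0 against 1.79, 2.01 and 2.23. IL6 was therefore close to undetected in Control at these depths and present at a low level in every Treated library. Summed over libraries, 305 counts stood against 3, a depth-adjusted ratio of 106 with a 95% exact interval of 35.9 to 517 that covers counting error only (edgeR adjusted p = 4.49e-09). The fitted log2 fold change of IL6, 6.56, depends on the small prior count and is not used as a size. IL6 shares 1730 bases on the opposite strand with STEAP1B, which had 395 to 487 counts in Control and 500 to 567 in Treated, and 1737 bases with IL6-AS1, which had 0 counts in Control and 3.61 to 8.23 in Treated. The main coding transcript IL6-201 took 56.4% to 74.9% of the Treated counts.

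The promoters of IL6 and IL11 are shown because both genes rose from different starting levels and carry different motifs. They are the 150 bases before the RefSeq start (GRCh38.p14), for IL6 chr7:22727050-22727199 on the plus strand and for IL11 chr19:55370464-55370613 on the minus strand, 5′ to 3′. Capitals mark the kappaB decamer, the NF-κB site, in IL6 and the AP-1 motif TGANTCA in IL11.
IL6: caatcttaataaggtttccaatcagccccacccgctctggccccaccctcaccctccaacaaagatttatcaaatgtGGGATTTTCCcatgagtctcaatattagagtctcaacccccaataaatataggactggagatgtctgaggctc
IL11: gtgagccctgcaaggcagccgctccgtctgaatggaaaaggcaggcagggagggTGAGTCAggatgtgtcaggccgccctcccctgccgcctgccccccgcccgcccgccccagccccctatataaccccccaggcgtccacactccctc
The search covered both strands of windows reaching 250 bases before and 50 after the start. The kappaB decamer is found in 5.91% of 35116 RefSeq windows and TGANTCA in 7.71%. A window was at hand for 8 of the 10 genes, all except LIF and CCL2. A match, or the lack of one, describes the letters only.

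CSF2, encoding GM-CSF, lies at chr5:132073790-132076170 (plus strand) and showed the largest change of the genes counted in every library. It had 20, 25 and 17 counts in Control and 689, 690 and 666 in Treated, or 0.363, 0.492 and 0.322 CPM against 12.96, 13.7 and 13.6 CPM. CSF2 thus went from a trace to a moderate level in each Treated culture. The rise was 34.2-fold (log2 fold change 5.09, SE 0.127, edgeR adjusted p = 3.29e-16), and 0.310% of tested genes had a higher log2 fold change. In length-scaled units it went from 0.347 ± 0.0973 TPM to 12.5 ± 0.652 TPM (SD, n = 3). Its neighbour IL3, another haematopoietic growth factor 10.6 kb away, stayed near zero at 0.025 CPM in Control and 0.00664 CPM in Treated, and IL5, 465 kb away, at 0.0126 and 0.0328 CPM. None of the 4 motifs searched (kappaB, TGANTCA, the CRE TGACGTCA and the C/EBP-ATF motif TGATGNAAN) matched in the CSF2 window. TGACGTCA is in 1.85% and TGATGNAAN in 3.61% of all windows.

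IL1A and IL1B lie 45.2 kb apart on chromosome 2 (IL1A at chr2:112773915-112784590, IL1B at chr2:112829751-112836903, both minus strand). IL1A, whose protein is active as a precursor and can act from dying cells, had 71, 81 and 84 counts in Control and 116, 149 and 128 in Treated. These are 1.29, 1.59 and 1.59 CPM against 2.18, 2.97 and 2.62 CPM. The groups were apart by a narrower margin than for the genes above, and the rise was 1.74-fold (log2 fold change 0.80, SE 0.161, edgeR adjusted p = 0.000281). IL1B, whose precursor needs cleavage by caspase-1, had 17, 9 and 18 counts in Control and 15, 11 and 12 in Treated, or 0.309, 0.177 and 0.341 CPM against 0.282, 0.219 and 0.245 CPM. It stayed under 1 TPM in every library and the groups overlapped. Its log2 fold change was -0.15 (SE 0.379, edgeR adjusted p = 0.744). Summed counts gave IL1B a Treated to Control ratio of 0.900 with a 95% exact interval of 0.567 to 1.42, for counting error only. IL1A was the more abundant of the pair per length, at 0.821 TPM against 0.181 TPM for IL1B in Control and 1.52 TPM against 0.229 TPM in Treated.

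CXCL8, encoding interleukin-8, lies at chr4:73740506-73743716 (plus strand). It had 212, 204 and 231 counts in Control and 876, 807 and 714 in Treated, or 3.85, 4.02 and 4.37 CPM against 16.5, 16.1 and 14.6 CPM. The groups did not overlap, and the rise was 3.85-fold (log2 fold change 1.95, SE 0.080, edgeR adjusted p = 2.71e-13). CXCL2 lies at chr4:74097035-74099293 (minus strand). It started lower, with 33, 44 and 30 counts in Control, and had 261, 231 and 213 in Treated, or 0.599, 0.866 and 0.568 CPM against 4.91, 4.599 and 4.36 CPM. All Treated libraries were above all Control libraries, a rise of 6.82-fold (log2 fold change 2.77, SE 0.164, edgeR adjusted p = 4.86e-11).

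CXCL1, the closest relative of CXCL2 in the list, moved the other way. It lies at chr4:73869393-73871242 (plus strand) and had 1000, 864 and 903 counts in Control and 715, 622 and 632 in Treated. In CPM these are 18.2, 17.0 and 17.1 against 13.4, 12.4 and 12.9. The groups did not overlap but the fall was small, 1.35-fold (log2 fold change -0.43, SE 0.059, edgeR adjusted p = 3.77e-06), and 69.1% of tested genes had a higher log2 fold change. The log2 fold change of CXCL1 stayed between -0.45 and -0.32 over 14 other settings, all of them called.

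CXCL1 and CXCL2 are similar enough that reads can be shared. Of the 31-base words of CXCL1-201, 16.1% also occur in another gene, 165 of them in CXCL2, and of CXCL2-202, 20.4% do. Over whole transcripts CXCL1 and CXCL2 were 80.8% identical, so their split, and that of CXCL3, is less certain than that of CXCL8, which shares no such word. The promoters are shown because the pair has the same motif at nearly the same place and moved in opposite directions, with CXCL8 for contrast. They are the 150 bases before the RefSeq start (GRCh38.p14): chr4:73869243-73869392 on the plus strand, chr4:74099196-74099345 on the minus strand and chr4:73740419-73740568 on the plus strand. Capitals mark overlapping kappaB decamers in CXCL1 and CXCL2 and TGANTCA in CXCL8.
CXCL1: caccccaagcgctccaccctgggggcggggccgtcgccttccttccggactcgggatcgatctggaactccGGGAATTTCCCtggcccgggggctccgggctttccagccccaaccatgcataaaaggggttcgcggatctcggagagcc
CXCL2: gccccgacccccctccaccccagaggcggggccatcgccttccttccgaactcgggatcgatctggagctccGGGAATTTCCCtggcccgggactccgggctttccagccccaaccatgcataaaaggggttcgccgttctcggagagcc
CXCL8: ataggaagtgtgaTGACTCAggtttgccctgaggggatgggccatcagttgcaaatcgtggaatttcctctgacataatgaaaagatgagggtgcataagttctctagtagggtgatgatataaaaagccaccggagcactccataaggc
The capital run is the same in CXCL1 and CXCL2 and begins 79 and 78 bases before the start. Over the 300-base windows the identity was 76.0% between CXCL1 and CXCL2 and 46.3% between CXCL1 and CXCL8. The CXCL8 window had no match to the kappaB decamer in the letters searched. It does hold ggaatttcc, letters that are also part of the capital run of CXCL1 and CXCL2. The missing match therefore does not mean that CXCL8 lacks an NF-κB site.

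These genes belong to a chemokine cluster on chromosome 4. In order along the chromosome, CXCL8 rose, CXCL6 was at most 0.0205 CPM in any library, CXCL1 fell, the platelet chemokines PF4 and PPBP had no count, CXCL5 was at most 0.0818 CPM, and CXCL3 and CXCL2 rose. CXCL3, a further neutrophil chemokine, went from 0.908, 0.906 and 0.719 CPM to 3.37, 4.16 and 4.19 CPM (log2 fold change 2.21, SE 0.158, edgeR adjusted p = 7.42e-10). Its promoter window is 84.7% identical to that of CXCL1 and holds the same overlapping decamers. Within 356.5 kb, 3 cluster genes therefore rose, CXCL1 fell, and 4 were silent or at a trace in every library.

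**Figure D2:**
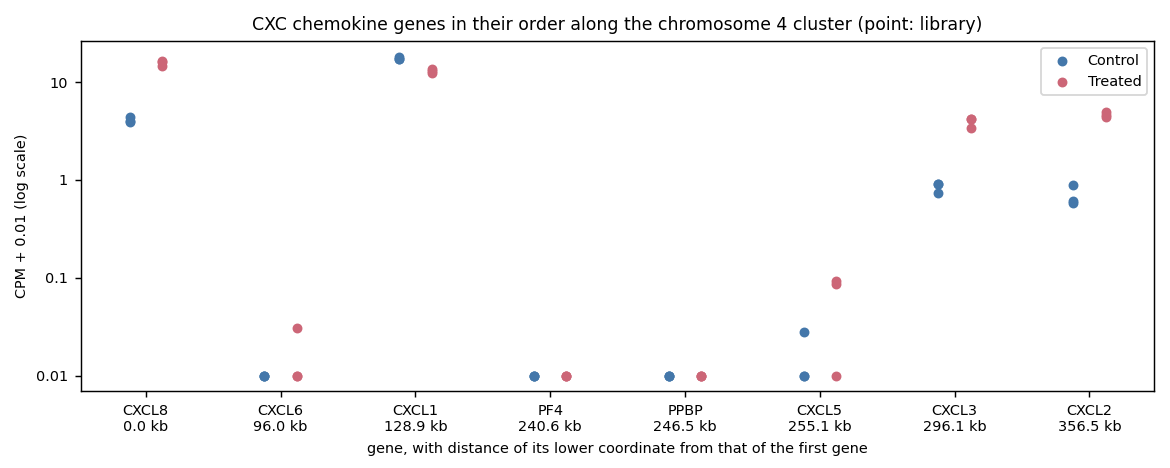
CPM plus 0.01 on a log axis for 8 chemokine genes in their order along chromosome 4; points are libraries of Control and Treated, and labels give the distance in kb from CXCL8. CXCL8, CXCL3 and CXCL2 are higher in Treated, CXCL1 lower, and the 4 remaining genes lie at or near the floor of the axis.

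CCL2, the monocyte chemoattractant MCP-1, lies at chr17:34255218-34257203 (plus strand) and showed the only large fall. It had 25, 33 and 39 counts in Control and 2, 3 and 3 in Treated, or 0.454, 0.650 and 0.738 CPM against 0.0376, 0.0597 and 0.061 CPM. CCL2 was low in Control, under 1 TPM in every library, and nearly absent in Treated. With 97 counts in all against 8, the Control to Treated ratio was 11.6 with a 95% exact interval of 5.68 to 27.7 for counting error only (fitted log2 fold change -3.48, SE 0.428, edgeR adjusted p = 1.04e-06). Its neighbours of the same family, CCL7, CCL8, CCL11 and CCL13, had no count in any library.

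The order of the genes by level per length differed between the groups. In Control the order by TPM was CXCL1 (13.95), LIF (11.6), CXCL8 (3.71), IL11 (2.29), IL1A (0.821), CCL2 (0.797), CXCL2 (0.639), CSF2 (0.347), IL1B (0.181) and IL6 (0.0258). The libraries of CXCL1 and LIF overlapped, as did those of IL1A with CCL2, CCL2 with CXCL2, and CSF2 with IL1B. In Treated it was LIF (39.0), CXCL8 (14.7), CSF2 (12.5), CXCL1 (11.01), IL11 (7.57), CXCL2 (4.604), IL6 (2.04), IL1A (1.52), IL1B (0.229) and CCL2 (0.0705). There the overlapping neighbours were CXCL8 with CSF2 and CSF2 with CXCL1. The 10 genes together summed to 31.2 to 36.6 TPM in Control and 87.7 to 101 TPM in Treated. CXCL1 was 40.01% to 41.0% of that sum in Control and 11.4% to 12.1% in Treated. LIF was 31.6% to 36.1% in Control and 41.1% to 42.6% in Treated. The TPM of LIF came mostly from the short LIF-202, which held the smaller part of its counts. The rank and share of LIF therefore depend on how reads were split between its transcripts. By CPM, which is not scaled to length, LIF (32.6 on average) was above CXCL1 (17.4) in Control. IL1B and CCL2 were under 1 TPM in every library of both groups. IL6, CSF2, CXCL2 and IL1A were under 1 TPM in every Control library and above it in every Treated library, IL6 being the one with no count in 2 Control libraries.

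The sizes of change were also compared across ways of processing. Every called gene kept its direction and its call in each alternative that tested it. The log2 fold change of IL6 varied most, from 1.57 to 9.71, followed by CCL2, from -3.66 to -0.74, and CSF2, from 3.33 to 5.28. For all 3 the smallest change was on the log2(TPM + 1) scale, which compresses changes of low genes.

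**Figure D3:**
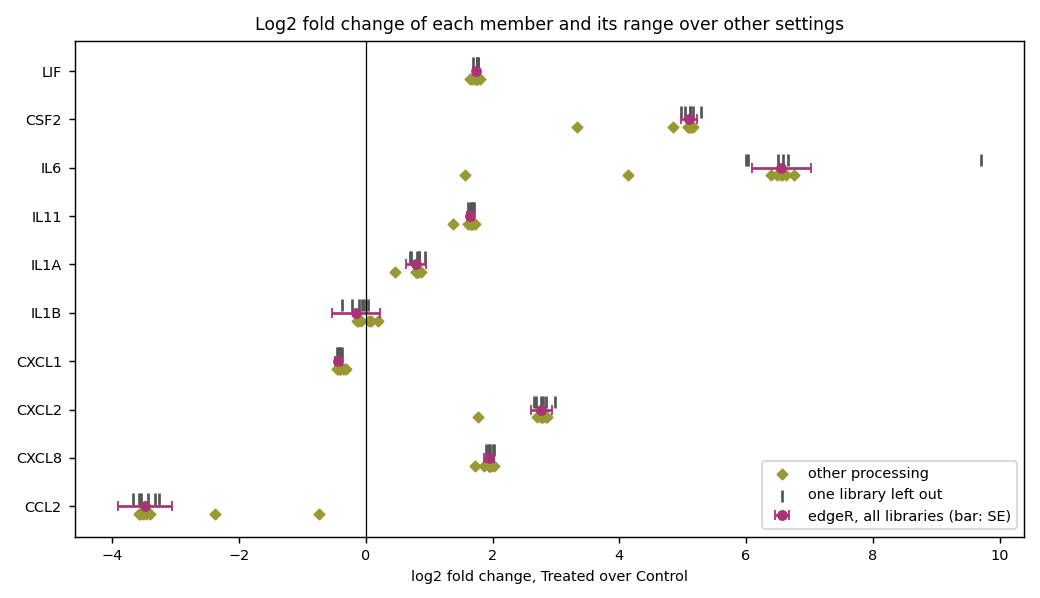
Log2 fold change of Treated over Control (horizontal axis) for the 10 genes; circles with SE bars are edgeR with all libraries, diamonds other processing and ticks fits with 1 library left out. Values of 9 genes stay on 1 side of 0 and those of IL1B fall on both.

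Receptors were examined next, because a ligand acts on the producing cell only where its receptor is present. Of 13 receptor genes, 8 were tested, 4 higher and 4 lower (median log2 fold change 0.18). The shared subunit IL6ST was abundant and rose from 85.0, 82.7 and 81.1 CPM to 127, 136 and 137 CPM (log2 fold change 0.69, SE 0.036, edgeR adjusted p = 7.09e-12). The ligand-specific chains fell: LIFR from 28.9, 27.5 and 29.2 CPM to 14.6, 13.5 and 13.1 CPM (log2 fold change -1.06), IL6R by 0.60 and IL11RA by 0.52 on the log2 scale, the IL11RA libraries overlapping between groups. The IL11RA call was lost in 10 of 14 alternatives, among them library totals alone (edgeR adjusted p = 0.0747) and each fit without 1 library except Control replicate 3. LIF mRNA and the mRNA of its receptor chain LIFR thus changed in opposite directions.

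For GM-CSF, the binding chain CSF2RA rose from 0.981, 0.965 and 0.871 CPM to 5.32, 3.68 and 4.19 CPM (log2 fold change 2.23, edgeR adjusted p = 8.24e-10). The signalling chain CSF2RB had 0 CPM in Control and at most 0.0597 CPM in Treated. The CSF2 rise therefore took place in cells with next to no mRNA of the signalling chain. Among the IL-1 receptors, the decoy IL1R2 rose from at most 0.0545 CPM to 0.282, 0.319 and 0.552 CPM, the signalling receptor IL1R1 rose (log2 fold change 0.94, edgeR adjusted p = 0.000807) at levels under 1 TPM (not called by limma, adjusted p = 0.129 on log2(TPM + 1) and 0.0542 on log2(TPM + 0.1)), and the accessory chain IL1RAP fell by 0.33. The antagonist IL1RN had 0 CPM in Control and 0.0188, 0.119 and 0.164 CPM in Treated. The chemokine receptors were near zero: CXCR1 reached at most 0.0409 CPM, CXCR2 at most 0.164 CPM, CCR2 at most 0.0205 CPM and the scavenger ACKR1 at most 0.157 CPM.

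**Figure D4:**
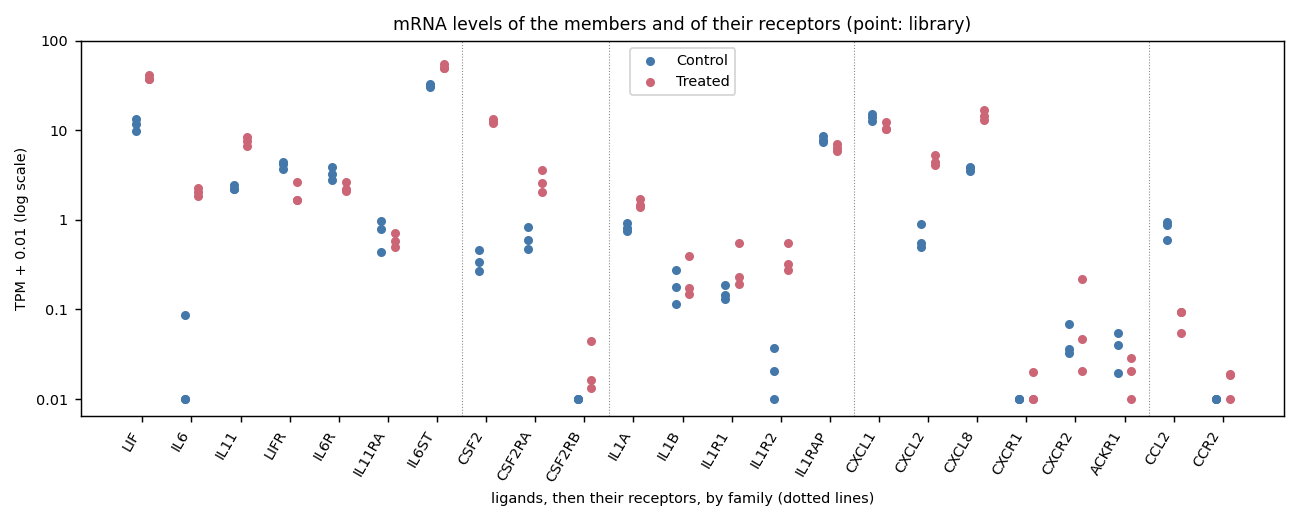
TPM plus 0.01 on a log axis for the 10 ligands and their 13 receptor genes, grouped by family between dotted lines; points are libraries of Control and Treated. IL6ST is the most abundant receptor mRNA, LIFR is lower and CSF2RA higher in Treated, and CSF2RB, CXCR1, CXCR2, ACKR1 and CCR2 lie near the floor.

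Below the receptors, 20 signalling and feedback genes gave 10 higher, 8 lower and 2 not called (median log2 fold change 0.12). STAT3, the main transcription factor of gp130 signalling, fell by 0.72 on the log2 scale, from 58.1, 58.6 and 54.3 CPM to 29.7, 35.8 and 38.6 CPM. SOCS3, the STAT3-induced inhibitor that shuts gp130 signalling off, went from 29.4, 29.3 and 27.0 CPM to 11.8, 11.4 and 10.8 CPM (log2 fold change -1.33, SE 0.056, edgeR adjusted p = 3.34e-13). The kinase JAK1 fell by 0.96 and the STAT5 target CISH by 0.88 (not called by limma on log2(TPM + 0.1), adjusted p = 0.0682). SOCS2, by contrast, rose (log2 fold change 1.92), as did SOCS1 (1.03, a low-count gene whose call was lost in 6 alternatives, DESeq2 among them with adjusted p = 0.124) and TRAF6 (1.17), the ubiquitin ligase of the IL-1 receptor pathway. The mRNAs of LIF, IL6 and IL11 were thus higher while SOCS3 mRNA was lower.

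Transcription factors known to act on cytokine genes moved mostly upward: of 23, 19 rose, 2 fell and 2 were not called. Over all tested genes 34.9% were called higher and 34.5% lower. The median log2 fold change of the list was 1.22 beside -0.02 over all genes tested. EGR1 (4.95), ATF3 (4.76) and DDIT3 (3.99), both ATF3 and DDIT3 known from the integrated stress response, had the highest log2 fold changes. CEBPB rose from 28.4, 23.3 and 26.4 CPM to 215, 216 and 195 CPM (log2 fold change 3.0). Of its relatives, CEBPG rose (3.58) and CEBPD was not called (0.03, edgeR adjusted p = 0.773). Of the AP-1 subunits, JUN went from 8.21, 8.25 and 12.7 CPM to 61.5, 60.6 and 64.1 CPM (log2 fold change 2.67, edgeR adjusted p = 0.000273). FOSL1, a subunit prominent in melanoma, went from 193, 193 and 192 CPM to 574, 595 and 596 CPM (log2 fold change 1.61). AP-1 subunits FOSL2 (0.81) and JUND (0.23) rose by less. Of the NF-κB genes, RELB (1.73), the co-regulator NFKBIZ (1.22), RELA (0.80), NFKB2 (0.57), the inhibitor and target NFKBIA (0.56) and REL (0.28) rose. NFKB1 had a log2 fold change of 0.18 that was not called (edgeR adjusted p = 0.0704). It was called by DESeq2 (adjusted p = 0.0256), with no filter (edgeR adjusted p = 0.000569) and without Treated replicate 6 (edgeR adjusted p = 0.000142). NFATC2, a factor of T-cell cytokine transcription, fell by 1.63.

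The AU-rich elements of the mRNAs were then counted, since they connect the members to decay factors. In the 3′ untranslated region of each gene's coding transcript with the highest mean estimated count (GENCODE 29), the pentamer occurred 10 times in CXCL2, 9 in IL11 and CXCL8, 8 in CSF2, 7 in LIF, 6 in IL6 and IL1B, 5 in IL1A and CXCL1, and once in CCL2. For LIF this was LIF-201, but the shorter LIF-202, which had the higher TPM, holds none in its region of 281 bases. The longer form TTATTTATT was present in 7 of the 10, all except IL6, IL1A and CCL2, and in 7.71% of 15107 tested genes with an annotated region. The 30-base stretches with most pentamers are shown for the gene with the largest replicated rise, the opposed pair and the gene that fell most, with pentamers in capitals and DNA letters.
CSF2: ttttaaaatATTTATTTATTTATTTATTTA
CXCL2: gtcttctATTTATTTATTTATTTATTTAtt
CXCL1: taggagaagtcttctATTTATTTATTTAtt
CCL2: tatgccttaagtaatgttaattcttATTTA
CSF2 packs its pentamers most densely, at 25.2 per 1000 bases in a region of 318 bases (stretch at bases 220 to 249), followed by IL6 at 14.1 and CXCL2 at 13.9 (bases 139 to 168). CXCL1 had 7.08 per 1000 bases (bases 131 to 160), close to CXCL8 at 7.19, and CCL2 2.66 (bases 111 to 140). Elements were thus present in the gene that fell slightly as well as in those that rose. Among all 1164 tested genes with the longer form, 46.6% were called higher and the median log2 fold change was 0.13, against 37.4% and -0.05 in the 13943 without it. Their regions were longer, with a median of 2632 against 835 bases, and the part of length in this difference was not tested.

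Of 13 mRNA decay and stability factors, 7 rose, 4 fell and 2 were not called (median log2 fold change 0.30). ZFP36 (tristetraprolin), which binds these elements and speeds decay, had 6.03, 9.73 and 9.12 CPM in Control and 23.9, 12.9 and 12.01 CPM in Treated. All its Treated libraries were above all Control libraries, but 1 Treated library was far above the others and the log2 fold change of 0.98 was not called (edgeR adjusted p = 0.0872). It was called by DESeq2 (adjusted p = 0.0248) and by limma on log2(TPM + 1) (adjusted p = 0.000313). Its relative ZFP36L1 rose (1.11), as did the RNase Regnase-1, gene ZC3H12A (1.06). The stabilising protein HuR, gene ELAVL1, fell by 0.84 and TIA1, a translational silencer, by 1.21.

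Genes of the inflammasome and of the cleavage and export of both IL-1 ligands gave 4 higher, 5 lower and 1 not called of 10 tested, out of 12 listed. Caspase-1 (CASP1) was at most 0.0614 CPM and the adaptor PYCARD at most 0.0946 CPM, both too low to be tested. NLRP3, the sensor that assembles them, rose from 1.43, 1.299 and 1.495 CPM to 6.13, 6.11 and 5.71 CPM (log2 fold change 2.08). The DNA sensor AIM2 fell by 1.80, and CAPN1, a calpain of the family that cleaves the IL-1α precursor, fell by 1.89. CASP5 had 0 CPM in Control and 0.320, 0.259 and 0.368 CPM in Treated. IL1B, CASP1 and PYCARD mRNA were thus all near zero in both groups.

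Other secreted factors placed the 10 genes among their families. Of 4 tested interleukin-6 family ligands beside LIF, IL6 and IL11, CLCF1 and CNTF rose (log2 fold changes 2.33 and 0.93) and EBI3 fell by 0.64, while OSM, 16 kb from LIF, was at 0 CPM in Control and at most 0.15 CPM in Treated. EBI3 was not called by DESeq2 (adjusted p = 0.174), by limma on log2(TPM + 0.1) (adjusted p = 0.0655), or without Control replicate 2 or Treated replicate 4 (edgeR adjusted p = 0.0897 and 0.162). Of 6 tested colony-stimulating and growth cytokines, 4 rose and 1 fell, TSLP having the highest log2 fold change (4.73, from 0.0967 to 2.58 CPM on average). Both tested relatives of IL1A fell, IL18 by 0.85 and IL37, which lies beyond IL1B on chromosome 2, by 1.34. IL37 was not called by DESeq2 (adjusted p = 0.169) or without Control replicate 1 or 3 or Treated replicate 5 or 6 (edgeR adjusted p from 0.064 to 0.095). Without the count filter 7 of these relatives were tested, with 4 higher and 2 lower. Of 18 other CC, XC and CX3C chemokines only 5 were tested, with CCL20 (2.13) and XCL1 (0.85) higher and 3 not called. XCL1 overlapped between the groups and was not called without Control replicate 1 or 2 or Treated replicate 4 or 6 (edgeR adjusted p from 0.0863 to 0.164), nor by DESeq2 (adjusted p = 0.178), with the effective-length offset (edgeR adjusted p = 0.0764) or on protein-coding transcripts only (edgeR adjusted p = 0.0569).

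Among 13 tested inflammatory cytokines of other families, 9 rose and 2 fell (median log2 fold change 1.302). IL24, a cytokine first found in melanoma cells, went from 27.3, 23.4 and 25.2 CPM to 482, 492 and 490 CPM (log2 fold change 4.27). IL20, of the same family, had 0.0363, 0 and 0.0189 CPM in Control and 0.639, 0.319 and 0.532 CPM in Treated (edgeR adjusted p = 3.05e-06). It passed the count filter only through the Treated libraries, as did IL32, another of the 9. These genes had to be higher there to be tested. IL23A rose (3.75). TGFB1 and MIF fell by 1.05 and 0.47. TNF and the interferon IFNB1 were too low to be tested, TNF at most 0.0818 CPM and IFNB1 at most 0.0205 CPM.

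**Figure D5:**
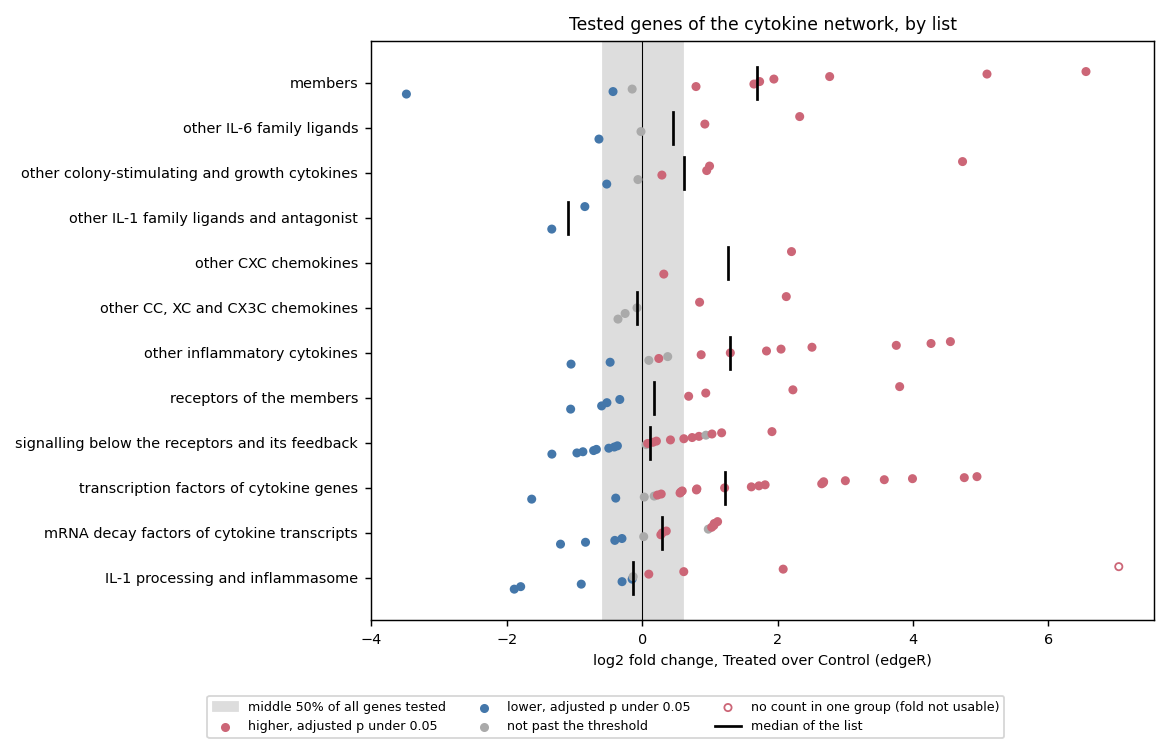
Log2 fold change of Treated over Control for every tested gene of the 10 and of 11 related lists; colour gives the call, the black line the list's median, the grey band the middle 50% of all tested genes (-0.58 to 0.60) and the open circle CASP5, with no count in Control. The medians of the 10 genes (1.69), the inflammatory cytokines (1.302), the CXC chemokines (1.26), the transcription factors (1.22) and the growth cytokines (0.62) lie to the right of the band. That of the other IL-1 family ligands (-1.09) lies to its left, and the remaining medians lie within it. The CXC chemokine and IL-1 family medians rest on 2 tested genes each.

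Finally, the protein-coding genes whose centred log2 CPM over the 6 libraries lay nearest to each called gene were listed, as a description. With 2 groups this likeness reflects mostly the size of the change. LIF was nearest to the transcription factor ARID3B (Euclidean distance 0.0644 over the 6 libraries), IL11 to the T-box factor TBX3 (0.0629) and CXCL1 to TRNP1 (0.0355). CXCL8 was nearest to SPOCK2 (0.0802), CXCL2 to CYSRT1 (0.274) and IL1A to CT55 (0.168). CSF2 was nearest to LURAP1L (0.437) and then to CD163 (0.466), a scavenger receptor of macrophages that went from 0.208 to 9.84 CPM on average. IL6 was nearest to TEX14 (0.746) and then to CSF2 (0.814), and CCL2 to OR51I2 (0.388), which also fell. The largest distances were those of IL6, CSF2 and CCL2, the genes with the fewest counts in 1 of the groups.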

How the data were processed

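RNA-seq of 3 untreated and 3 hMGL-treated A375 cultures was used. Per the submitters' processing notes the tools were kallisto 0.45.0 and DESeq2 1.30.0, with no roles named. The transcript index, poly(A) selection and strand use are not given in the sources used here. Per the file headers, the authors deposited estimated counts, TPM, length and effective length for 244939 transcripts. Effective length exceeded length for 25.6% to 27.1% of transcripts, which affects TPM.

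Of these transcripts, 203594 were matched to GENCODE 29 by identifier and the 41345 left out held 4.83% to 5.09% of counts. Lengths were equal to GENCODE 29 for 87.7%, so the annotation releases may differ. Among the main coding transcripts of the 10 genes, only that of CCL2 had an equal length. CSF2-201 had 788 bases as deposited and 787 in GENCODE 29, CXCL2-202 had 1115 and 1218, and IL1B-201 had 1507 and 1631. The AU-rich element counts, shared words and transcript identities used GENCODE 29 sequences. For the genes other than CCL2 these are not the same length as the transcripts quantified. Estimated counts were summed per gene, rounded and tested with edgeR 4.0.16 (TMM, filterByExpr with minimum count 10 and total 15, robust quasi-likelihood fit without covariates) in R 4.3.3. Alternatives used DESeq2 1.42.0, limma 3.58.1 on log2(TPM + 1) and log2(TPM + 0.1), library totals, other filters, an effective-length offset and 5 of the 6 libraries. A fit on protein-coding transcripts was chosen after seeing the data. The pipeline was tested on simulated data. Each SE is the absolute log2 fold change divided by the square root of the quasi-likelihood F statistic, not an output of edgeR. Intervals for count ratios are exact at 95%. The p-values set the difference between the groups against the spread between these cultures of 1 line. They do not cover variation between melanoma lines.

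The members and lists were chosen with earlier results of these data known. Named beside the members are the 3 highest and 3 lowest called genes of a list (a part of them is given), 12 genes set by name and the nearest 2 protein-coding genes at 1 CPM or more, of which some are not reported here. STAT3, CEBPB, CEBPG, CEBPD, IL32, other NF-κB and AP-1 genes, CD68, LYZ and further markers were named after their values were seen. So were CSF2RB, IL1RAP, the chemokine receptors and the neighbouring chemokines. Promoters are from RefSeq (GRCh38.p14) and 3′ regions from GENCODE 29.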

Additional observations from a re-analysis of the deposited data

How the results depend on the processing

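No paired analysis was possible because the groups share no replicate number (1 to 3 against 4 to 6). Among the 10 genes, 9 were called in every alternative except the stricter filter of 50 counts, where IL1B and CCL2 were not tested and all 8 others were called. Over all genes, between 13284 and 17011 were called, and with library totals alone the split was 8521 higher and 7024 lower. Only IL1B among the 10 changed sign: its log2 fold change was 0.054 with limma on log2(TPM + 1), 0.197 on log2(TPM + 0.1), 0.091 with the effective-length offset, and -0.38 to 0.030 with 1 library left out, above 0 without Control replicate 3. It was never called. The cause was not tested. The epithelial marker KRT18, called lower at -0.08, changed sign to 0.017 with limma on either scale and lost its call there and in 7 other alternatives. The log2 fold change of IL6 ranged from 5.998 to 9.71 with 1 library left out, highest without Control replicate 2, which holds its 3 Control counts. Of 1218 values for 89 other genes, 74 lost and 7 gained the call. XCL1 and CXCL16 belong to short lists whose counts of called genes fell from 2 to 1 in several alternatives. No scaling moved the median of all genes by more than 0.090 on the log2 scale. Depth limits IL6 in Control, CCL2 in Treated and IL1B throughout.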
